A study of Mus musculus with 18 samples.

Results

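The drug and xenobiotic metabolising enzymes of the mouse ileal epithelium were examined in sorted epithelial cells of lactating females, virgin females and virgin males. The set was taken by gene symbol: protein-coding genes of the cytochrome P450 families Cyp1, Cyp2 and Cyp3, the UDP-glucuronosyltransferases (Ugt1 and Ugt2), the cytosolic and kappa glutathione transferases (Gst), the sulfotransferases (Sult) and the carboxylesterases (Ces1 and Ces2), with at least 10 counts in 6 or more of the 18 libraries. Of 134 genes with such a symbol, 77 passed this minimum, among 12728 protein-coding genes that passed it. The minimum takes the libraries together and uses no difference between groups, but genes near it can depend on the libraries of a group to pass. Gsto2, Cyp2d10 and Cyp2d40 would have missed it without the lactating libraries, and Ces2f without the virgin females. All 77 enzymes were tested in every comparison.

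Each group had 6 libraries: dams taken at day 7 of lactation, virgin females of matching age, and virgin males of matching age. Epithelial cells were sorted by flow cytometry from the ileum, and polyadenylated RNA was sequenced in bulk. The labels name a breeding diet (RM3) and a maintenance and experimental diet (RM1) without saying which the lactating mice ate, and they give no strain, mutant allele, agent, age in weeks or batch. The labels do not say whether each library came from its own mouse, so p-values measure the spread between these libraries.

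These enzymes turn foreign and endogenous lipophilic compounds into excretable products. Carboxylesterases hydrolyse esters and amides, and cytochromes P450 oxidise their substrates with electrons from the reductase Por. Glucuronosyltransferases, sulfotransferases and glutathione transferases then attach a polar group, and efflux pumps carry the conjugates out. In the small intestine this system acts on the first pass of an oral compound, most strongly in the absorptive cells of the villus, and the nuclear receptors Nr1i2 (PXR) and Nr1i3 (CAR), the aryl hydrocarbon receptor Ahr and the transcription factor Nfe2l2 (NRF2) are its known sensors.

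Promoter windows of 4 enzymes are shown because the results below turn on Cyp3a44, its paralog Cyp3a11 and Ugt1a1, and because Cyp2c65 carries the motif whose share differed most between the enzymes and all promoters. Each runs from 250 bases before to 50 bases after the RefSeq transcription start (GRCm38.p6), 5' to 3' along the gene's strand. The windows are chr5:145805825-145806124 (minus strand) for Cyp3a44, chr5:145879805-145880104 (minus strand) for Cyp3a11, chr1:88211709-88212008 (plus strand) for Ugt1a1 and chr19:39060756-39061055 (plus strand) for Cyp2c65. Capitals mark AGGTCA (the nuclear receptor half-site) in both Cyp3a windows, CAAAGTCCA (an HNF4-type site) in Cyp3a11 and Cyp2c65, and AATCATTAAC, the reverse-strand match of an HNF1-type site (GTTAAT, any base, then ATT), in Ugt1a1.
Cyp3a44: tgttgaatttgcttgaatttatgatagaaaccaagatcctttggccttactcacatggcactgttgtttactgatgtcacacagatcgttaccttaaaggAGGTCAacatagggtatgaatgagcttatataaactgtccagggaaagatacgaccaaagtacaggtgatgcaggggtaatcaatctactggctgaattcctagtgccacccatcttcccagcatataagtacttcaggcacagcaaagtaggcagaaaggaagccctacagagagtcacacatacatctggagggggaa
Cyp3a11: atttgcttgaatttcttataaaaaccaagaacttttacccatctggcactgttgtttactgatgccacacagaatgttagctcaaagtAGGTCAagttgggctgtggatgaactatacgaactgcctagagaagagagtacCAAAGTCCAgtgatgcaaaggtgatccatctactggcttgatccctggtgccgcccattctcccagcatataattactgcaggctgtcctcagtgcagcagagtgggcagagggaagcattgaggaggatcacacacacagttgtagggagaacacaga
Ugt1a1: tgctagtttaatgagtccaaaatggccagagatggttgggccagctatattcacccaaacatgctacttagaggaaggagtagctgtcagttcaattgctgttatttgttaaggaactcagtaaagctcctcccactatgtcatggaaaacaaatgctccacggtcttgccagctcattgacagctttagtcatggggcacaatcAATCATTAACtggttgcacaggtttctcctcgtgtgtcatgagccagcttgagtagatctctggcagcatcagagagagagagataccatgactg
Cyp2c65: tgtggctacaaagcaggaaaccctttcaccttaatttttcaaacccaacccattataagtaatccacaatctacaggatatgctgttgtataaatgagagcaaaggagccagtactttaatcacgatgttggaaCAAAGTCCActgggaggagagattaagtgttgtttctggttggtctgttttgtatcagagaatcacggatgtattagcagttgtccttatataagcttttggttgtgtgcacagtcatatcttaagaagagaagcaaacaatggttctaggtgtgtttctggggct

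The Cyp3a44 and Cyp3a11 windows were identical in 225 of 316 aligned columns (71.2%), and each held AGGTCA, its first base at -150 in Cyp3a44 and at -162 in Cyp3a11. Cyp3a11 held CAAAGTCCA at -109 as well, which was not found in the Cyp3a44 window. The window of Cyp2c65 held CAAAGTCCA at -116, and that of Ugt1a1 held the HNF1-type match at -45. The closest pair among the 5 Cyp3a promoters was Cyp3a25 with Cyp3a59, at 95.7% identity. Both of these held AGGTCA too, so Cyp3a13 had the only Cyp3a window without it. A promoter window was found for 67 of the 77 enzymes. Searched on both strands, CAAAGTCCA occurred in 7 of these 67 (10.4%) and in 0.475% of 32851 RefSeq promoters of the same length. Its 7 carriers were Cyp2c40, Cyp2c65, Cyp2c67, Cyp2c68, Cyp2c69, Cyp3a11 and Sult1b1, of which 5 are neighbouring paralogs. AGGTCA occurred in 23.9% of the enzymes' windows and 16.3% of all, and the HNF1-type site in 4.48% (Sult1d1, Ugt1a1 and Ugt1a9) and 0.399%. TNGCGTG, the core to which the Ahr complex binds, was in 4.48% of the enzymes' windows and 5.07% of all, and TGACNNNGC, the antioxidant response core, in 8.96% and 12.4%. AGGTCA and CAAAGTCCA were counted separately where they overlapped, and a match describes letters and not binding.

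Library totals lay between 34577104 and 49039300 counts, and the 77 enzymes took 0.418% to 0.825% of a library's counts. Virgin female 2, with 31050 CPM (counts scaled to library size) of the rRNA-overlapping transcript Gm42418, and virgin male 6, with 29980 CPM, stood apart from the rest, which had 1230 to 4477 CPM. The libraries also differed along the crypt to villus axis. A cell cycle score, the mean log2 CPM of 35 proliferation genes, averaged 4.65 ± 0.62 for lactating females, 4.58 ± 0.57 for virgin females and 5.03 ± 0.17 for virgin males (SD, n = 6 each), and the mean log2 CPM of 18 villus enterocyte markers was 10.4 ± 0.53, 10.5 ± 0.56 and 9.83 ± 0.45. The 7 epithelial markers summed to 11710 CPM or more in every library, the 12 stromal and endothelial markers to at most 0.981 CPM with Lum at 0 throughout, and the 15 immune markers to 14.6 to 52.7 CPM. The 6 hepatocyte markers summed to 6.95 to 31.8 CPM, with Alb, the liver's main secreted protein, at most 0.837 CPM, and the highest sums were in lactating libraries, where the tyrosine-degrading enzyme Tat reached 25.7 CPM.

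The count minimum kept every Ces2, Gsta, Gstk, Gsto, Gstm and Gstp gene, 6 of 8 Ces1, 1 of 3 Cyp1, 22 of 48 Cyp2, 5 of 7 Cyp3, 3 of 4 Gstt, 5 of 21 Sult, 5 of 9 Ugt1 and 6 of 10 Ugt2 genes. Just inside it were Gsto2, with 10 counts in 6 libraries (4 lactating, 1 virgin female, 1 virgin male), and Cyp2d40, with 7. Just outside were Cyp2a5, with 5 libraries, and Cyp2f2 and Ugt1a2, with 4 each. The sulfotransferases and the Cyp2 family therefore had the most genes below the minimum.

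Levels between genes are compared as CPM per kilobase of exon, averaged over the 18 libraries. The length is the union of a gene's annotated exons over all its transcripts, so ranks and family leaders depend on it. The ileal epithelium carried a few very abundant enzymes in each chemical class and many at trace levels: 11 enzymes exceeded 100, 19 lay between 10 and 100, 28 between 1 and 10, and 19 at or below 1. The carboxylesterase Ces2e had the highest level, 393 CPM per kilobase, 54.6% of the Ces2 family on this scale. Ces2a (172) and Ces2c (148), further ester hydrolases of the endoplasmic reticulum, followed it within the family. Ces1f, the leading Ces1 enzyme, stood at 25.2 CPM per kilobase.

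**Figure D1:**
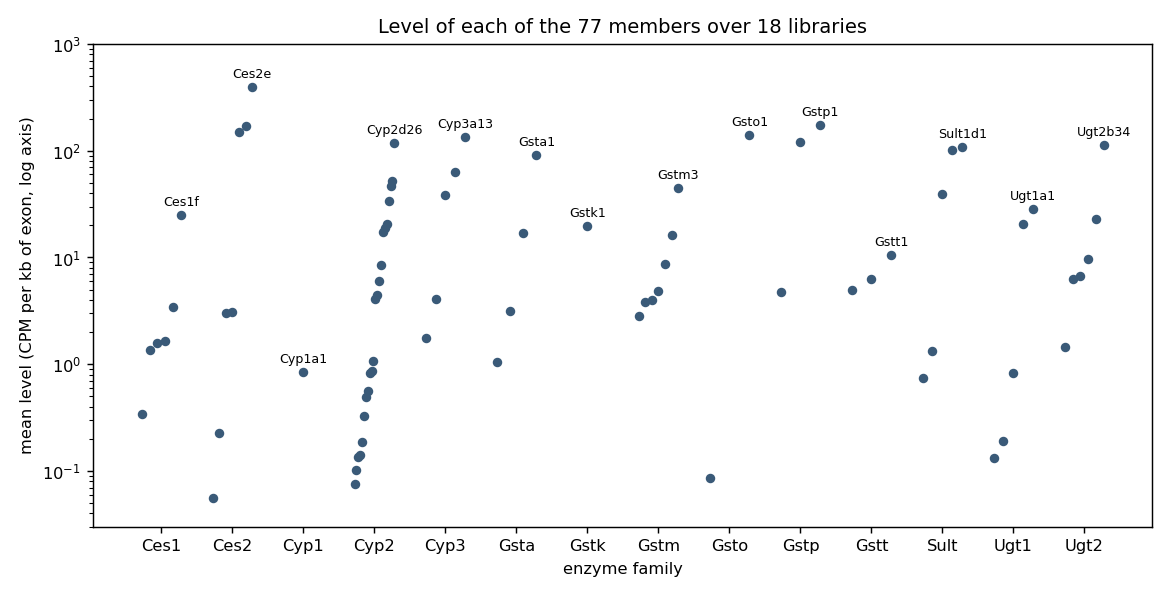
Mean level of each of the 77 enzymes over the 18 libraries (y axis, CPM per kilobase of exon, log axis) by enzyme family (x axis); each point is 1 gene and the leading gene of each family is named. Ces2e is highest at 393, and levels within the Cyp2 family spread from under 0.1 to 119.

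Among the oxidising enzymes Cyp3a13 (134.5 CPM per kilobase, a Cyp3a enzyme of the mouse gut) and Cyp2d26 (119) led, followed by Cyp3a25 (63.4), Cyp2c65 (52.4, an eicosanoid-forming epoxygenase), Cyp2j6 (47.1) and Cyp3a11 (38.3, a classical PXR target in liver). Cyp1a1, the hydrocarbon-inducible target of Ahr, stood at 0.842, and Cyp2e1, the ethanol-oxidising P450 of liver, at 0.189. The conjugating classes were led by Gstp1 (175) and Gstp2 (122), pi-class glutathione transferases, Gsto1 (141), an omega-class enzyme with reductase activity, the glucuronosyltransferase Ugt2b34 (112), and the sulfotransferases Sult1d1 (108) and Sult1b1 (101). Gsta1 stood at 90.5, Sult2b1, which sulfates sterols, at 39.5, Gstm3 at 44.8, and Ugt1a1, the bilirubin glucuronosyltransferase, at 28.5 CPM per kilobase. In families with more than 1 member, the leading gene held from 35.3% (Cyp2d26 in Cyp2) to 99.9% (Gsto1 in Gsto) of the family's level. Before division by length the order could differ. Cyp3a11 had 195 CPM over 5093 bases, above Cyp2j6 (170 over 3605), Cyp3a25 (132 over 2083) and Cyp2c65 (101 over 1928).

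Several of these levels share sequence with other genes, which the counting could split. Of all 50-base stretches of exon, 90.5% of those in Gsta1, 54.3% in Gstp2, 36.1% in Ces2c and 33.7% in Gstp1 occur in another annotated gene. Ugt1a1 shares 80.2%, since the Ugt1a transcripts use the same last exons, so the split between Ugt1a1 and its relatives is uncertain. Cyp3a13, Gstk1, Gsto1, Sult1b1 and Sult1d1 share none, and Ces2e shares 3.3%.

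Summed over all 77 enzymes, the level was 6361 ± 2274 CPM for lactating females, 6289 ± 1823 for virgin females and 5188 ± 936 for virgin males (SD, n = 6 each). The lactating libraries ran from 4242 over a median of 5912 to 10140 CPM, the virgin females from 4468 over 6223 to 9554, and the virgin males from 3875 over 5087 to 6276. The ranges overlapped throughout, and no test was made on sums over these genes. By class, the Cyp3 sum was 872 ± 574, 777 ± 359 and 560 ± 163 CPM, and the Ces2 sum 2102 ± 1020, 1858 ± 549 and 1529 ± 338 CPM, in the same order of groups. The Ugt1 sum was the lowest in lactating females, at 132 ± 22.4 CPM against 168 ± 18.3 and 163 ± 26.9 CPM. The Ugt2 sum was 544 ± 74.3, 657 ± 131 and 567 ± 83.2 CPM, and the Sult sum 731 ± 146, 795 ± 248 and 592 ± 101 CPM.

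Many of the enzymes varied with the cell cycle score, fitted as 1 slope shared by the 3 groups; slopes per group were not fitted, and the virgin males had the narrowest range of scores. When each gene was regressed on the score within groups, 42 of the 77 enzymes changed with it (54.5%, against 43.8% of 15572 genes), called at an adjusted p under 0.05 in edgeR's quasi-likelihood test. Of these, 40 fell as the score rose, where 22.0% of all genes did, and 2 rose, where 21.8% of all genes did. The median slope of the 77 was -0.45 log2 units per unit of the score, and that of all genes was near zero, at -0.00265. In bulk RNA fewer cells of a type and less RNA per cell cannot be told apart. Of the 18 villus enterocyte markers 17 fell along the same score, and of 15 crypt stem cell markers 13 rose.

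**Figure D2:**
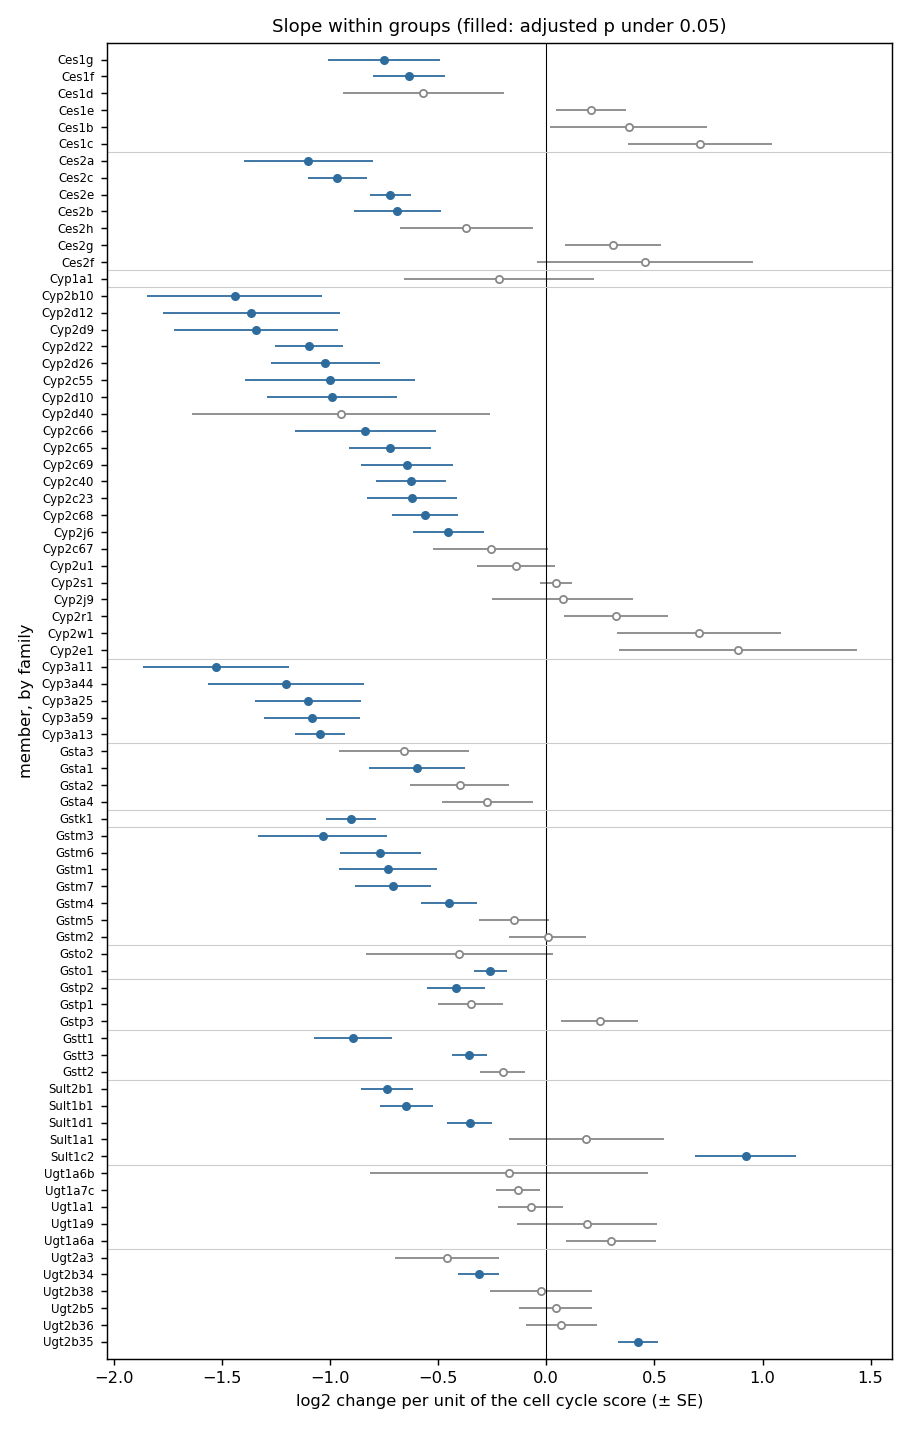
Slope of each of the 77 enzymes on the cell cycle score within groups (x axis, log2 change per unit of the score, bars ± SE), genes in rows by family; filled points have an adjusted p under 0.05. All 5 Cyp3 genes lie at or below -1.05 and none of the 5 Ugt1 genes is filled.

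Among the oxidising enzymes, all 5 Cyp3 genes fell with the score, with slopes from -1.53 (Cyp3a11) to -1.05 (Cyp3a13), and so did 14 of 22 Cyp2 genes, with Cyp2d22 at -1.10 ± 0.16 (SE). Cyp3a13 had the smallest p of all 77, with a slope of -1.05 ± 0.11 (adjusted p = 1.52e-06). Its level ran from 244 (lactating female 2) over a median of 385 to 897 CPM (lactating female 1) among lactating females, from 242 over 447 to 633 CPM among virgin females, and from 171 over 304 to 368 CPM among virgin males. Lactating female 1 had the lowest cell cycle score, 3.68, and lactating female 2 the highest, 5.39. Cyp3a11 spanned the widest range of the Cyp3 genes, from 25.3 to 832 CPM within the lactating females, and it lay between 57.1 and 357 CPM in virgin females and between 75.5 and 237 CPM in virgin males.

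Among the ester hydrolases, 4 of 7 Ces2 genes fell with the score. Ces2e had a slope of -0.72 ± 0.09 (adjusted p = 1.05e-05) and Ces2c of -0.97 ± 0.14 (adjusted p = 2.3e-05), while Ces2f, Ces2g and Ces2h did not pass the test. Ces2e lay between 774 and 1621 CPM for lactating females (median 1033), between 756 and 1716 for virgin females (median 1188) and between 743 and 1155 for virgin males (median 911). Of the 6 Ces1 genes 2 fell, among them Ces1f at -0.63 ± 0.17. Ces1c, at 0.71 ± 0.33, missed the threshold (adjusted p = 0.0903) and passed it without lactating female 1 (1.32, adjusted p = 0.0074) or without lactating female 3 (0.85, adjusted p = 0.0459).

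Counts among the conjugating enzymes differed by class. The kappa-class glutathione transferase Gstk1 fell with a slope of -0.90 ± 0.11 (adjusted p = 8.09e-06), and 5 of 7 Gstm, 2 of 3 Gstt, 1 of 4 Gsta, 1 of 2 Gsto and 1 of 3 Gstp genes fell. Gstk1 reached 68.9 CPM in lactating female 1 and 47.4 CPM in virgin female 1, the libraries with the lowest scores, and 18.5 to 23.3 CPM in lactating female 2 and virgin female 4, those with the highest. Sult2b1 (-0.73 ± 0.12), Sult1b1 (-0.65 ± 0.12) and Sult1d1 (-0.35 ± 0.10) fell. None of the 5 Ugt1 genes passed the test, with Ugt1a1 at -0.07 ± 0.15, and of the 6 Ugt2 genes Ugt2b34 fell, at -0.31 ± 0.10. The difference in slope between classes was not tested.

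Sult1c2 and Ugt2b35 were the enzymes that rose with the cell cycle score. Sult1c2, a sulfotransferase at 1.32 CPM per kilobase, had a slope of 0.92 ± 0.23 (adjusted p = 0.00411), and Ugt2b35, a glucuronosyltransferase at 6.34 CPM per kilobase, of 0.42 ± 0.09 (adjusted p = 0.00145). Sult1c2 stood at 4.19 CPM in lactating female 2 and 4.13 CPM in virgin female 4, the library with the highest score in each group, and at 0.949 to 2.01 CPM in the other 10 female libraries. Ugt2b35 reached 30.1 CPM in lactating female 2, where the other lactating libraries lay between 15.2 and 21.5 CPM. With Ugt2b35 at 26.1 CPM in virgin female 4, its highest female values fell in the same libraries as those of Sult1c2. Cyp2w1 (0.70 ± 0.38) and Cyp2e1 (0.89 ± 0.55) had slopes above 0 that missed the threshold (adjusted p = 0.14 and 0.199).

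**Figure D3:**
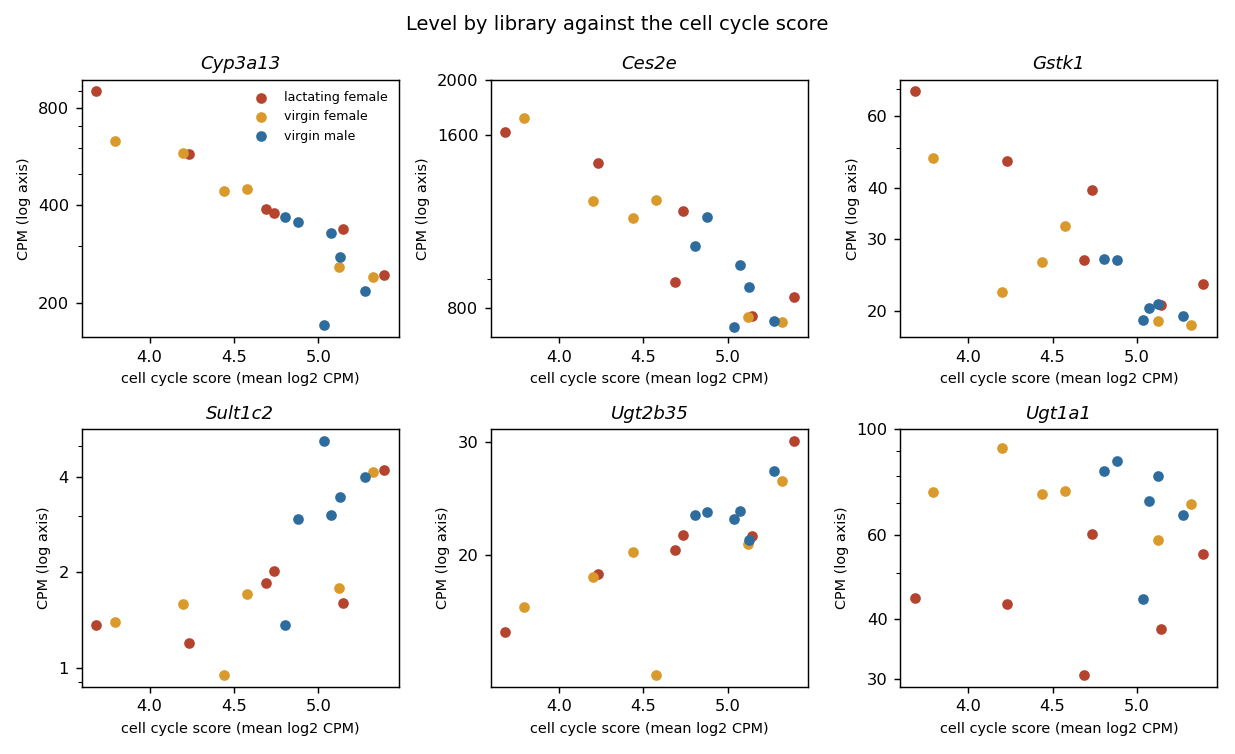
Level of 6 enzymes (y axis, CPM, log axis) against the cell cycle score (x axis, mean log2 CPM of 35 genes), 1 point per library, coloured by group. Cyp3a13, Ces2e and Gstk1 are highest in the low-score libraries, Sult1c2 and Ugt2b35 in the high-score ones, and Ugt1a1 shows lower lactating values at most scores and no slope past the threshold.

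The slope count was 31 without virgin female 1, which had the lowest score of its group, where 6026 of 15744 genes were called. It was 36 to 44 without any other library, where 5585 to 7206 genes were called. It was 39 when the sign-reversed villus enterocyte score took the place of the cell cycle score, where 6242 of 15572 genes were called. With the cell cycle score and all libraries 6820 of 15572 genes were called. A further setting with a lower count is given in the closing section.

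Lactating against virgin females was the comparison of reproductive state within a sex. No enzyme passed the test: 0 of 77 were called by edgeR (0.0578% of all genes were). At an unadjusted p under 0.05 there were 11, 5 higher and 6 lower, a share of enzymes to be read against 6.44% of all genes. DESeq2 called 3 of the enzymes and 69 of 15572 genes. The median log2 fold change of the 77 was -0.04 against -0.00261 for all genes, with 35 values above and 42 below 0. Among the values above 0 were Gsto2, Cyp2d10 and Cyp2d40, which passed the count minimum only with the lactating libraries, so their direction is not independent of it. The 3 groups are compared pairwise, so each group enters a pair of comparisons.

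**Figure D4:**
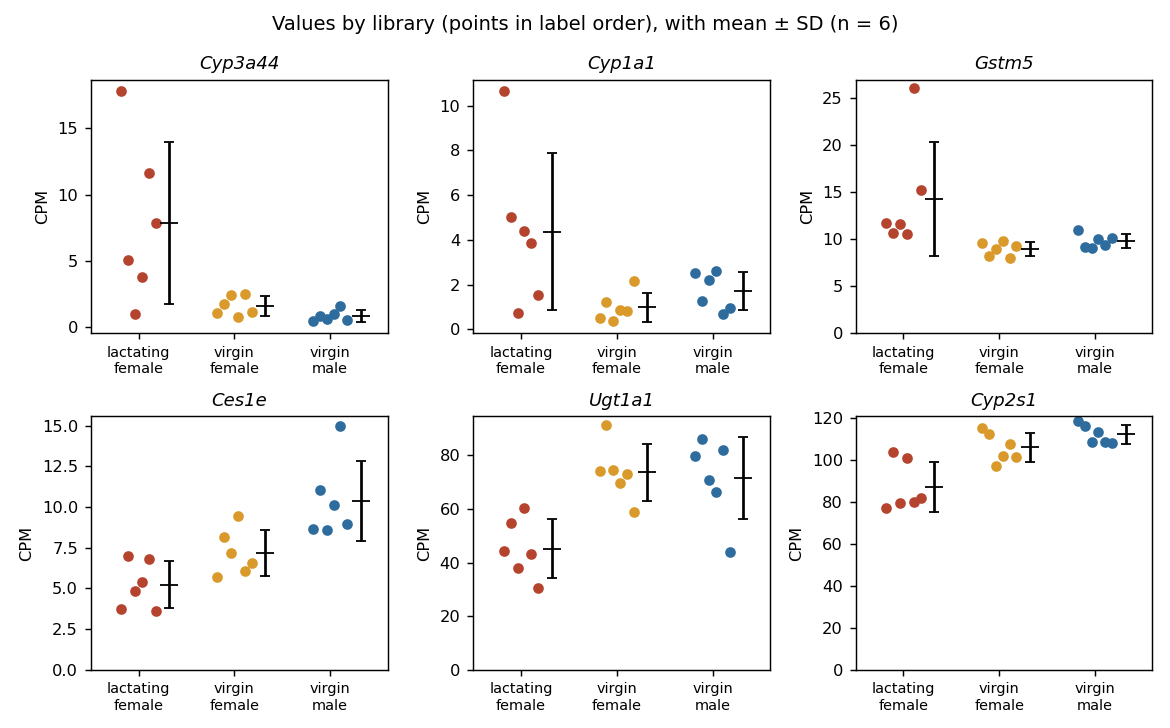
CPM of Cyp3a44, Cyp1a1, Gstm5, Ces1e, Ugt1a1 and Cyp2s1 in each library (points, 6 per group), with the mean ± SD beside them. Cyp3a44 spreads from 0.94 to 17.8 CPM in lactating females and stays at or below 2.51 CPM in virgins, and Ces1e is lower in all lactating females than in any virgin male.

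The largest values for lactation were in a pair of cytochromes P450 at low levels. Cyp3a44, a Cyp3a gene known for female-predominant expression in mouse liver (chr5:145773983-145805874), was measured in lactating females at a lowest 0.94, a median of 6.46 and a highest 17.8 CPM, and in virgin females at 0.732, 1.43 and 2.51 CPM. In all, 5 of 6 lactating libraries lay above all virgin females, and lactating female 3 lay among them. Its log2 fold change was 2.30 ± 0.51 (SE), with an adjusted p of 0.157 in edgeR. Of 27 alternatives 4 called it: DESeq2 (adjusted p = 0.00143), the cell cycle score (0.0309) or the villus enterocyte score (0.0276) in the fit, and the fit without lactating female 3 (0.026). The other 23 did not, with an adjusted p of up to 0.461, reached with the 2 groups alone. The 4 settings that called Cyp3a44 also called more of all genes than the 9 of edgeR with all libraries. In the order given they called 69, 59 and 45 of 15572 genes and 16 of 15740. Cyp1a1 (chr9:57687928-57703824) ran from 0.733 over 4.13 to 10.7 CPM in lactating and from 0.371 over 0.834 to 2.14 CPM in virgin females, with overlapping ranges. Its log2 fold change was 2.14 ± 0.54, with an adjusted p of 0.254 in edgeR and 0.0113 in DESeq2, the 1 of 27 alternatives that called it. Tiparp, a further textbook target of Ahr, stood at 37.3 ± 8.29 CPM in lactating and 36.0 ± 4.83 CPM in virgin females (log2 fold change 0.05, adjusted p = 0.978). It had 0.42 ± 0.13 in lactating females against virgin males (adjusted p = 0.145). In virgin males against virgin females it had -0.37 ± 0.13 (adjusted p = 0.565). Whether Ahr activity differed was not tested.

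Gstm5, a mu-class glutathione transferase, was the enzyme whose lactating and virgin female values did not overlap (1 of 77; 0.289% of all genes). It ran from 10.5 over 11.6 to 26.0 CPM in lactating and from 8.01 over 9.06 to 9.82 CPM in virgin females. The log2 fold change of 0.67 ± 0.18 missed the threshold (adjusted p = 0.302) and was 0.41 without lactating female 5, which held the 26.0 CPM. Exons of 4933431E20Rik on the other strand cover 13.9% of Gstm5, and whether the counting used strand is not given in the sources used here. Ces1f, a lipid-hydrolysing carboxylesterase, stood at 97.5 ± 23.8 CPM in lactating and 68.7 ± 28.8 CPM in virgin females, a log2 fold change of 0.51 ± 0.24 (adjusted p = 0.771). Cyp2d10, a trace-level enzyme at 0.335 ± 0.206 against 0.155 ± 0.0924 CPM, had a value of 1.12 ± 0.43 (adjusted p = 0.641). It reached 10 counts in 4 lactating, 2 virgin female and 2 virgin male libraries, so it passed the count minimum only with the lactating group. Its place among the enzymes higher at an unadjusted p under 0.05 is therefore not independent of that minimum.

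On the lower side, Ugt1a1 (chr1:88211959-88218997) ran from 30.5 over 43.7 to 60.5 CPM in lactating and from 58.7 over 73.6 to 91.5 CPM in virgin females. Of the lactating libraries 5 lay below every virgin female, and the groups overlapped through lactating female 4 and virgin female 6. The log2 fold change was -0.70 ± 0.17, with an adjusted p of 0.192 in edgeR and 0.0251 in DESeq2, the 1 of 27 alternatives that called it. Exons of other genes on the other strand cover 41.5% of Ugt1a1, and whether the counting used strand is not given in the sources used here. Ugt2a3, a glucuronosyltransferase at 34.4 ± 14.3 against 56.2 ± 15.6 CPM, had -0.70 ± 0.30 (adjusted p = 0.717). Cyp2s1, an extrahepatic P450 of epithelia, stood at 87.1 ± 11.9 against 106 ± 7.06 CPM (-0.28 ± 0.09, adjusted p = 0.482), Cyp2u1 at 17.7 ± 6.80 against 24.4 ± 3.84 CPM (-0.46 ± 0.20, adjusted p = 0.723), and Ces1e at 5.23 ± 1.47 against 7.17 ± 1.41 CPM (-0.45 ± 0.19, adjusted p = 0.701).

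Virgin males against virgin females addressed sex without lactation. No enzyme was called (0 of 77 in edgeR and in DESeq2; 0.0835% of all genes were called by edgeR), and 6 had an unadjusted p under 0.05, 3 higher and 3 lower in males, against 8.32% of all genes. The median log2 fold change was -0.11, with 50 of 77 values below 0, beside -0.013 for all genes. No enzyme had groups that did not overlap (0.43% of all genes). All 18 villus enterocyte markers were below 0 in the same comparison, 13 of them at an unadjusted p under 0.05.

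On the lower side in males were several abundant enzymes. Sult1b1, which sulfates phenols and thyroid hormones, ran from 174 over 232 to 292 CPM in virgin males and from 215 over 309 to 566 CPM in virgin females, with overlapping ranges. Its log2 fold change was -0.51 ± 0.22 (adjusted p = 0.565) and -0.0372 with the villus enterocyte score in the fit. Cyp3a13 had -0.60 ± 0.30 (adjusted p = 0.565), which turned to 0.147 with that score in the fit. Sult1d1 had -0.35 ± 0.15, Ugt2b34 -0.29 ± 0.14 and Cyp2c23, an epoxygenase at 0.563 CPM per kilobase, -0.84 ± 0.29 (each with an adjusted p of 0.565). With the villus enterocyte score in the fit, Sult1d1 had -0.05, Ugt2b34 -0.0288 and Cyp2c23 -0.312.

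On the higher side in males were low-level genes. Ces1b, a carboxylesterase at 0.343 CPM per kilobase, ran from 0.495 over 0.951 to 1.49 CPM in males and from 0.224 over 0.405 to 0.622 CPM in virgin females, and its log2 fold change was 1.20 ± 0.39 (adjusted p = 0.565). Ces1e stood at 10.4 ± 2.46 CPM in males and 7.17 ± 1.41 CPM in virgin females (0.53 ± 0.19, adjusted p = 0.565), with every male above the mean of the females. Sult1c2 had 0.78 ± 0.36, Ugt2b35 0.29 ± 0.15 and Gstp3, a low-level pi-class transferase, 0.35 ± 0.20 (adjusted p from 0.565 to 0.568). With the villus enterocyte score in the fit, Ces1b had 0.873, Ces1e 0.436, Sult1c2 0.197 and Ugt2b35 0.0659. The lowest value of Gstp3 among the 27 alternatives was 0.152. None of these enzymes passed the test.

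Lactating females against virgin males differ in sex and in reproductive state together, which cannot be told apart here. Cyp3a44 rose and Ces1e fell, 2 of 77 enzymes (2.6%; 0.764% of all genes were called, 0.629% higher and 0.135% lower). At an unadjusted p under 0.05 there were 15 enzymes, 8 higher and 7 lower, against 15.9% of all genes, and the median log2 fold change was 0.06 beside -0.00844 for all genes. All 18 villus enterocyte markers were above 0 in this comparison, 9 of them at an unadjusted p under 0.05. With DESeq2, without lactating female 2 or without lactating female 4, the count was 4, Cyp2s1 and Ugt1a1 being added. Among all genes these settings called 410 of 15572, 311 of 15699 and 116 of 15721, where edgeR with all libraries called 119.

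**Figure D5:**
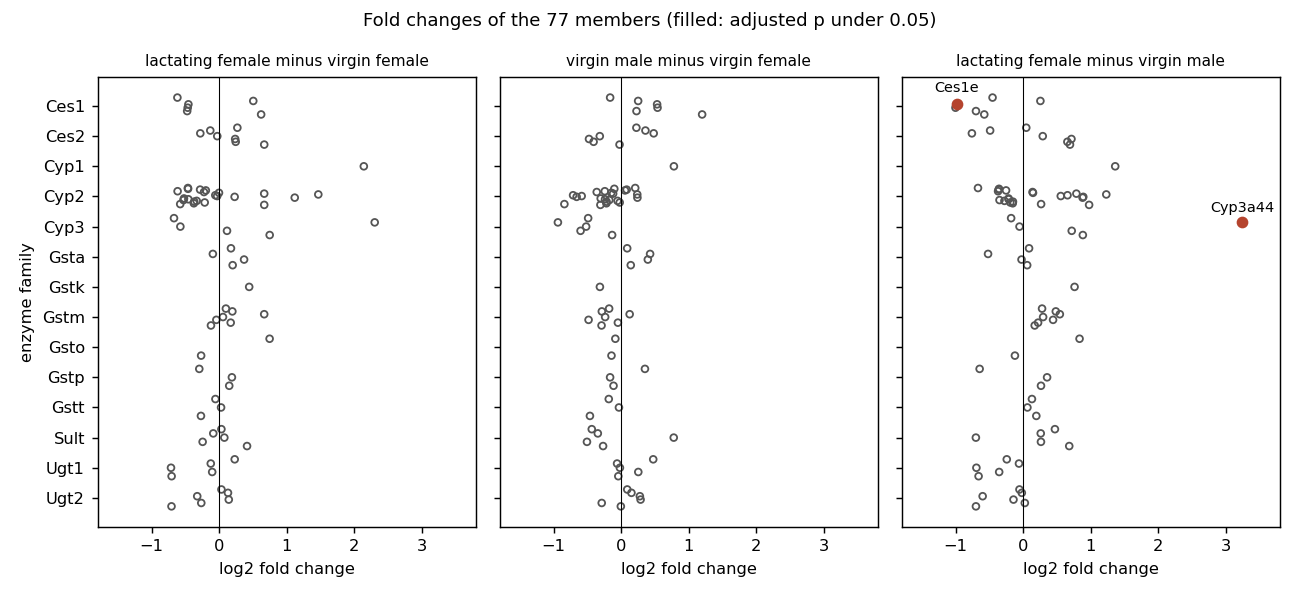
Log2 fold change of each of the 77 enzymes (x axis) by family (y axis) in the 3 comparisons; filled points have an adjusted p under 0.05. Cyp3a44 (3.24) and Ces1e (-0.99) are the filled points, both in lactating females against virgin males.

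Cyp3a44 stood at 0.94, 6.46 and 17.8 CPM (lowest, median, highest) in lactating females and at 0.473, 0.72 and 1.58 CPM in virgin males. In all, 5 of 6 lactating libraries lay above all males, and all 6 lay above the males' mean. Its log2 fold change was 3.24 ± 0.54 (adjusted p = 0.00351), and it stayed called in all 27 alternatives run, with values from 2.36 (villus enterocyte score in the fit) to 3.52. Against virgin females the males had -0.94 ± 0.52 (adjusted p = 0.566), which was not called. Of the 50-base stretches of Cyp3a44, 26.5% occur in other genes, and 11.5% occur in Cyp3a41a, whose symbol does not match the rule. Whether reads of these genes were split or shared was not tested.

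The other Cyp3 enzymes did not pass this test. Cyp3a13 had a log2 fold change of 0.72 ± 0.30 (adjusted p = 0.268), which was 0.0205 with the villus enterocyte score in the fit. Cyp3a11 had 0.88 ± 0.59, Cyp3a25 -0.05 ± 0.39 and Cyp3a59 -0.18 ± 0.37. Cyp3a44 made up a small part of the family's RNA: without it the Cyp3 sum was 864 ± 569 CPM for lactating females and 559 ± 163 CPM for males.

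Ces1e, the esterase that holds beta-glucuronidase in the endoplasmic reticulum of liver cells (chr8:93201218-93229619), ran from 3.61 over 5.10 to 7.00 CPM in lactating females and from 8.56 over 9.52 to 15.0 CPM in virgin males. All lactating values lay below all male values. The log2 fold change was -0.99 ± 0.19 (adjusted p = 0.0137), and with the villus enterocyte score in the fit it was -0.90 with an adjusted p of 0.0642. In the other 26 alternatives it was called. Virgin females, at 5.71 to 9.44 CPM, lay between these groups and overlapped both.

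Cyp2s1 was the other enzyme whose lactating and male values did not overlap (2 of 77 with Ces1e; 1.34% of all genes). It ran from 77.1 over 80.9 to 104 CPM in lactating females and from 108 over 111 to 118 CPM in virgin males. The log2 fold change of -0.36 ± 0.09 missed the threshold (adjusted p = 0.0601), and it was called with DESeq2 and without lactating female 2 or 4. Exons of Gm26707 on the other strand cover 5.27% of Cyp2s1. Ugt1a1, at 45.2 ± 10.9 against 71.5 ± 15.3 CPM, had -0.66 ± 0.17 (adjusted p = 0.0752) and was called in 7 of 27 alternatives, among them that without virgin male 6 (-0.77, adjusted p = 0.0209). The value of Ugt1a1 against virgin females, -0.70, came from a comparison that shares the lactating libraries. Exons of other genes on the other strand cover 41.5% of Ugt1a1. Ugt2b36, a glucuronosyltransferase, had -0.60 ± 0.18 (adjusted p = 0.151), Gstp3 -0.65 ± 0.20 (adjusted p = 0.163), Gstk1 0.76 ± 0.27 (adjusted p = 0.214), Gstm5 0.54 ± 0.18 (adjusted p = 0.185) and Cyp1a1 1.36 ± 0.52 (adjusted p = 0.236). The value of Gstk1 was 0.147 with the villus enterocyte score in the fit and 0.307 with the cell cycle score. Gstm5 had 0.283 without lactating female 5, and Cyp1a1 had 0.875 without lactating female 1.

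The regulators of these enzymes were followed as a list of 20 sensors, of which 19 were tested. None was called between lactating and virgin females by edgeR or DESeq2. An unadjusted p under 0.05 was found for 4 of the 19, against 6.44% of all genes. Nr0b2 (SHP), a corepressor induced by bile acid signalling, fell in virgin males against virgin females (log2 fold change -3.53, adjusted p = 0.0296) and rose in lactating females against males (3.99, adjusted p = 0.00268). It was the 1 sensor of 19 called in each of these comparisons, where 0.0835% and 0.764% of all genes were called. Nr0b2 ran from 0.39 over 6.43 to 15.8 CPM among lactating females, from 2.46 over 4.08 to 9.83 CPM among virgin females and from 0.259 over 0.385 to 0.704 CPM among males. The virgin females lay above all males, and the lactating females overlapped them. Against virgin females the call held in 16 of 27 alternatives. It was lost without virgin female 2 (-3.20, adjusted p = 0.0782), without any 1 of the 6 virgin males (adjusted p from 0.0567 to 0.114) and without virgin female 2 and virgin male 6 together (-3.10, adjusted p = 0.289). It was also lost with the cell cycle score (-3.20, adjusted p = 0.0653) or the villus enterocyte score (-3.03, adjusted p = 0.193) in the fit. Against lactating females it held in all 27 alternatives (3.30 to 4.24). Nr1i2 (107 ± 13.6, 109 ± 18.3 and 92.6 ± 9.35 CPM for the 3 groups in the same order), Nr1i3 (25.7 ± 10.8, 24.6 ± 5.0 and 20.4 ± 6.29 CPM) and Ahr (8.38 ± 0.77, 9.56 ± 2.29 and 10.4 ± 1.10 CPM) did not pass any of the 3 comparisons.

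Along the cell cycle score, 4 of the 19 sensors tested fell and 2 rose, where 22.0% of all genes fell and 21.8% rose. Nr1i2 fell at -0.35 ± 0.06 (adjusted p = 0.00017) and Nr1i3 at -0.60 ± 0.15 (adjusted p = 0.0034), while Ahr rose at 0.27 ± 0.10 (adjusted p = 0.0356). Nfe2l2 (-0.06 ± 0.10) and Hnf4a, the enterocyte and hepatocyte lineage factor (-0.10 ± 0.08), did not pass the test.

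The other pathway lists held 108 distinct tested genes, and edgeR called none of them in the 3 group comparisons. At an unadjusted p under 0.05 there were 10 in lactating against virgin females (6.44% of all genes), 22 in virgin males against virgin females (8.32% of all genes) and 23 in lactating females against virgin males (15.9% of all genes), and DESeq2 called 0, 0 and 2 (Papss2 and Slc13a1). The counts along the cell cycle score stand beside 22.0% of all genes that fell and 21.8% that rose. Of 12 P450 partners 5 fell and 1 rose, with Por at -0.68 ± 0.11 (adjusted p = 8.24e-05). Of 15 tested genes that supply conjugation cofactors 8 fell, among them Papss2, which makes the sulfate donor, at -0.66. Of 20 NRF2 targets 7 fell and 1 rose, of 17 transporters 7 fell and 3 rose, with the efflux pump Abcg2 at -0.70, of 25 other oxidising and hydrolysing enzymes 13 fell and 1 rose, of 14 other conjugating enzymes 9 fell and 1 rose, and of 11 other P450 genes 6 fell and 2 rose. In the group comparisons the smallest adjusted p among these lists was that of Slc13a1, the sulfate carrier of the brush border, at 0.0887 in lactating females against virgin males (0.85 ± 0.22).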

How the data were processed

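RNA was measured in 18 libraries prepared with a directional kit after polyA selection, per the labels' protocols. The submitters' processing notes name HISAT2 2.0.4, featureCounts from Subread 2.0.0, DESeq2 1.24.0 and the build GRCm38. The deposited values are whole-number counts per gene and library, made by the authors. Whether the counting used strand is not given in the sources used here. Of 47729 Ensembl identifiers 47310 matched GENCODE M21, the source of symbols, types and coordinates, and 419 did not.

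The enzymes and lists were chosen with earlier results of these data known. Counts were tested with edgeR 4.0.16 in R 4.3.3 (filterByExpr, TMM, glmQLFit and glmQLFTest), 1 fit of all 18 libraries with 1 mean per group, and Benjamini-Hochberg adjustment over 15572 genes. The slope fit added the cell cycle score, mean log2 CPM with a prior count of 2, centred within each group. SE is the log2 fold change divided by the root of F. CPM use TMM library sizes, and in a library 3 counts equal 0.0612 to 0.0868 CPM. Scripts were tested on simulated data. DESeq2 1.42.0 and other settings are in the closing section. Genes were named by rule: called in a comparison, the 3 highest levels per family, the 5 smallest p per direction and comparison, the 2 smallest p per pathway list, and 6 regulators. Ces2f, Ces2g, Ces2h, Cyp3a59, Cyp2d40 and the motif carriers were named outside it, as members of families or sets described whole.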

Additional observations from a re-analysis of the deposited data

Results flagged for a closer look

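In 20 of 147 groups tested (49 named enzymes, 3 groups of 6 libraries), the highest library stood apart from the other 5 by more than Dixon's 95% limit; chance flags about 1 in 20 groups. The libraries of a group are the same for every gene, so these values are not independent.

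Virgin female 1, which had the lowest cell cycle score of its group, stood apart in 8 enzymes. It held Gstm3 at 201 CPM (29.1 to 60.4 in the other virgin females), Gstm1 at 63.3 (15.6 to 26.3), Gstt1 at 40.8 (10.8 to 20.6), Gstt2 at 30.3 (16.2 to 21.4) and Gstt3 at 37.1 CPM (at most 26.3). It also held Gstp2 at 232 CPM (95.5 to 134), Cyp3a25 at 360 (76.8 to 163) and Ugt1a7c at 122 CPM (79.7 to 91.3).

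Lactating female 5 stood apart in Gstm5 at 26.0 CPM (10.5 to 15.2), Gstp1 at 389 (253 to 295) and Gstp2 at 203 CPM (121 to 150). Virgin male 5 did so in Ces1f at 126 CPM (66.3 to 81.2), Gsta2 at 7.19 (2.85 to 3.98) and Gstm1 at 32.9 CPM (16.8 to 21.4). Gstp1 and Gstp2 share sequence with each other, and 49.8% of the 50-base stretches of Gsta2 occur in another gene, so their reads may be split.

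Sult1c2 stood at 4.19 CPM in lactating female 2 (1.20 to 2.01 in the others) and at 4.13 CPM in virgin female 4 (0.949 to 1.78), the libraries with the highest cell cycle scores of these female groups. Ces2c stood at 891 CPM in lactating female 1 (203 to 433), the library with the lowest score. Cyp2j6 stood at 298 CPM (149 to 197) and Gsto2 at 0.353 CPM (0.0839 to 0.173) in virgin female 2, a library high in Gm42418, and Gstt2 at 23.2 CPM (19.2 to 20.4) in virgin male 2.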

How the results depend on the processing

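Across alternatives, 1060 fold changes or slopes of named enzymes were recomputed over 40 pairs of gene and comparison: 1037 kept direction and side of the threshold, 20 passed it only in the alternative, 2 lost it and 1 reversed. The reversal was Cyp3a13 in virgin males against virgin females, 0.147 with the villus enterocyte score in the fit. The losses were Ces1e, named above, and the slope of Sult1c2 with the replicate block (0.75, adjusted p = 0.0667). For lactating against virgin females the called count of 0 became 3 with DESeq2 (Cyp1a1, Cyp3a44, Ugt1a1). Of all genes, DESeq2 called 69 in place of 9. The count was 1 (Cyp3a44) with the cell cycle score or the villus enterocyte score as a covariate, where 59 and 45 of all genes were called. It was 0 to 1 without any library, and without lactating female 3 it was 1 (Cyp3a44), where 16 of 15740 genes were called. For virgin males against virgin females it was 0 in all 27 alternatives. For lactating females against virgin males the count of 2 became 4 with DESeq2 (Ces1e, Cyp2s1, Cyp3a44, Ugt1a1), where 410 of all genes were called in place of 119. It was 4 with the replicate block (Ces1e, Cyp3a44, Ugt1a1, Ugt2b36), where 114 of all genes were called, and 2 to 4 without any library. The slope count of 42 was 17 (16 lower) with the replicate block, where 3406 of 15572 genes were called in place of 6820. It was 31 to 44 without any library. With that block Nr0b2 in virgin males against virgin females had -3.65 (adjusted p = 0.0506). The replicate numbers were not shown to pair libraries: correlations of same-numbered libraries ran from -0.219 to 0.477, 7 of 18 over 0.1, and 5 libraries correlated best with their own number. The causes of these changes were not tested. Depth limits the trace enzymes, such as Gsto2 and Cyp2d10, which lay near 3 counts in some libraries.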
